A study of Mus musculus with 16 samples.

Results

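The measurement described here compared RNA bound to the ribosomes of PNOC neurons with RNA of the whole hypothalamus in control mice. PNOC neurons are nerve cells that express Pnoc, the gene of prepronociceptin. The members were chosen by sample label and not by any measured value. They are 8 of the 16 libraries of the study, namely the pulldown libraries of control pools 1 to 4 and the input libraries of the same 4 pools. All 13714 genes with a mean CPM (counts scaled to the library total) of 1 or more over these 8 libraries were tested.

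The control animals carried the floxed Lepr allele (Lepr-flox), without deletion of Lepr, on a C57Bl/6N background. Animals of both genotypes of the study also carried the ROSA-STOP-L10a-bactrap allele, from which Cre recombinase switches on the ribosomal protein L10a fused to GFP, in PNOC neurons per the labels. The sources used here do not name the Cre line of the control animals. Hypothalami were taken in the morning from random-fed mice on chow, at 12 weeks of age per the treatment protocol and from 10 weeks per the extraction protocol. Each lysate combined 4 animals, so libraries of a group differ as pools do and say nothing of single animals. From each lysate an aliquot was kept as input, and GFP-tagged ribosomes were then precipitated from the remainder with anti-GFP antibodies to give the pulldown. The comparison group named further on carried the same bacTRAP allele with Lepr deleted in Pnoc-expressing cells (pools 5 to 8), and it was sampled in the same way.

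Prepronociceptin is cut into nociceptin, an opioid-related peptide that acts on the receptor Oprl1 and inhibits neurons. In the hypothalamus Pnoc-expressing cells include cells of the arcuate nucleus, a centre of feeding control, and many Pnoc-expressing cells release the inhibitory transmitter GABA. In translating ribosome affinity purification (bacTRAP), an RNA is higher in pulldown than in input when tagged cells hold a greater share of it on their ribosomes than the tissue does of its total RNA. It is lower when its source is mainly other cells, the nucleus or the mitochondria. In such bulk samples fewer cells of a type and less RNA per cell cannot be told apart.

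The promoters of the 2 most enriched of the label's marker genes are shown because these somatostatin and growth hormone-releasing hormone transcripts rose further than Pnoc itself. The windows run from 250 bases before to 50 bases after the annotated start (RefSeq, build GRCm38.p6) and are printed 5′ to 3′ on the coding strand, which is the minus strand for both. Capitals mark TGACGTCA, the cyclic AMP response element, in Sst, and TAATTA, a core recognised by homeodomain proteins, together with TATAAA, the TATA box, in Ghrh. Both windows lie inside the annotated spans of the genes, which extend further upstream. The promoter table used held no match for Pnoc.
Sst, chr16:23890795-23891094: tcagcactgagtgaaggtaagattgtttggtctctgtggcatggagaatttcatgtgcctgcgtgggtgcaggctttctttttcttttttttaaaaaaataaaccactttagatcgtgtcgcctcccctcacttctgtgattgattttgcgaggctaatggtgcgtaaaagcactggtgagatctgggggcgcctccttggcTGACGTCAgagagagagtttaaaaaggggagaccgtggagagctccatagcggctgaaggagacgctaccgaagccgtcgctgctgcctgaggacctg
Ghrh, chr2:157337377-157337676: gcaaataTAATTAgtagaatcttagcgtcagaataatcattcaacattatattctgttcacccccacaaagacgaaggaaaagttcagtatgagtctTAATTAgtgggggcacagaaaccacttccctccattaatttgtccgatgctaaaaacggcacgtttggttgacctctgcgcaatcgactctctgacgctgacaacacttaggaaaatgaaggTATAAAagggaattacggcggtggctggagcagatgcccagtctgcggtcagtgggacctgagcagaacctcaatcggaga

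Each motif was searched for on both strands in 32851 windows of this length. TGACGTCA lay in 1.79% of them, and among the 22 tested peptide genes with a window it lay in those of Sst and Cartpt, both higher in pulldown. TAATTA lay in 5.29% of windows and in those of 4 peptide genes, of which Ghrh and Tac1 were higher in pulldown and Pomc and Npvf lower. TATAAA lay in 13.6% of windows and in those of 7 peptide genes. These percentages are shares of windows and not of genes, so the counts of peptide genes cannot be set against them. The median log2 fold change of the 366 tested genes with TGACGTCA was 0.0826, against -0.00107 for 9639 genes without it. For TAATTA it was 0.0101 in 325 genes with and 0.00212 in 9680 without. For TATAAA it was -0.0296 in 849 genes with and 0.00446 in 9156 without. The matches describe the printed letters and not binding of a factor.

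Estimated counts summed to 65218805 to 74726368 in the input libraries and to 73039384 to 78036810 in the pulldown libraries. Mitochondrial ribosomal RNA took 27.3% ± 0.581 (SD, n = 4) of input counts and 0.0752% ± 0.0103 of pulldown counts, and the share of all mitochondrially encoded RNA was 31.7% ± 0.579 and 0.0980% ± 0.0133. CPM values were therefore scaled with the trimmed mean of M-values (TMM), whose factors were 0.803 to 0.825 in input and 1.23 to 1.24 in pulldown. A floor of 3 counts corresponded to 0.0495 to 0.0574 CPM in input and 0.031 to 0.0334 CPM in pulldown. Floors cover counting error only, because no molecular identifiers were counted. Scaling by library totals moved the median of all genes up by 0.604 on the log2 scale, and length-normalized TPM with a pseudocount of 1 moved it up by 0.925. Directions below are relative to TMM scaling, under which the median gene was at -0.000358, so a gene said to be lower by less than these shifts had a higher raw share in pulldown. Replicate pools gave similar ratios, and the pool-wise log2 ratios correlated at 0.943 to 0.956 across the tested genes for the 6 pairs of pools, a description over genes that share libraries and depth.

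Pnoc was 3.07-fold higher in the precipitated RNA than in the lysate, and the markers Ghrh, Sst and Gad1 were higher too. Pnoc (ENSMUSG00000045731, chromosome 14, 65400673 to 65425564) had 2.62, 2.60, 3.04 and 2.80 CPM in the input of pools 1 to 4 and 7.03, 7.98, 9.21 and 9.74 CPM in the pulldown. Every pulldown value lay above every input value, and the level in pulldown was lowest in pool 1. Its log2 fold change was 1.62 (SE 0.119, n = 4 pools, edgeR quasi-likelihood test, adjusted p = 4.43e-07), and between 635 and 916 counts lay behind each pulldown value. Pnoc nevertheless ranked 20th of the 13714 genes by fold change and was a low transcript.

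Ghrh, growth hormone-releasing hormone of arcuate neurons (chromosome 2, 157329496 to 157348725), had 9.84, 8.97, 10.5 and 12.4 CPM in input and 49.8, 50.6, 54.4 and 56.1 CPM in pulldown. The groups were far apart, with a log2 fold change of 2.34 (SE 0.0903) that ranked 7th of all genes. Sst, somatostatin (chromosome 16, 23889573 to 23891342), had 55.6, 57.3, 63.7 and 56.0 CPM in input and 245, 255, 241 and 237 CPM in pulldown. Its log2 fold change of 2.07 (SE 0.0508) ranked 11th, and its 4 pools were nearly equal in pulldown. Gad1, which makes GABA (chromosome 2, 70561303 to 70602014), had 178, 185, 189 and 179 CPM in input and 340, 353, 346 and 362 CPM in pulldown. Its log2 fold change of 0.94 (SE 0.0367) ranked 141st, a 1.92-fold excess. All 4 markers of the label were thus higher in pulldown in 4 of 4 pools.

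**Figure D1:**
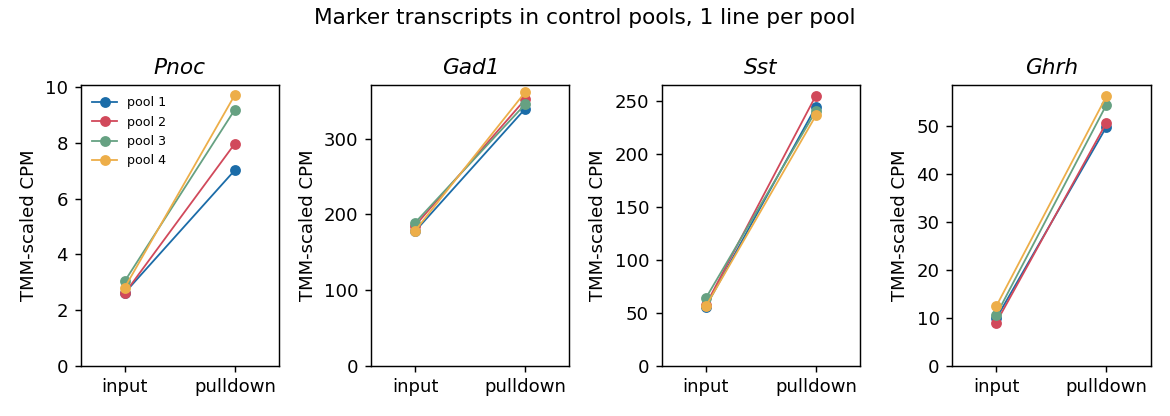
TMM-scaled CPM (vertical axes, from 0) of Pnoc, Gad1, Sst and Ghrh in input and pulldown, with points for single libraries and a line for each of the 4 control pools. Each line climbs, for Pnoc from 2.60 to 3.04 CPM in input to 7.03 to 9.74 CPM in pulldown.

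Of the other genes tied to the label, Oprl1, the nociceptin receptor, had a log2 fold change of 0.31 (SE 0.0938, adjusted p = 0.0137), with groups that overlapped. Rpl10a, the gene of the tagged protein, was at 0.20 (SE 0.0388), from 123 to 133 CPM in input to 141 to 150 CPM in pulldown. Lepr, which encodes the leptin receptor, went the other way. It had 4.61, 5.22, 3.56 and 4.10 CPM in input and 1.79, 1.37, 1.59 and 1.50 CPM in pulldown, a log2 fold change of -1.48 (SE 0.152). Leprot, its neighbour on chromosome 4, was at -0.40 (SE 0.0955).

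Over all genes, 9275 of 13714 passed at an adjusted p under 0.05 by edgeR's quasi-likelihood test (67.6%), 4430 higher in pulldown (32.3%) and 4845 lower (35.3%). Under TMM depletion went further than enrichment, and by more than 2-fold 100 genes were higher (0.729%) and 1755 lower (12.8%). These counts rest on the scaling, since with library totals 2164 genes were higher and 1126 lower by more than 2-fold, and with limma on log2(TPM + 1) 6004 and 613. The filter was on the mean of both kinds of library, so 102 of the genes called higher passed it only through the pulldown and 550 of those called lower only through the input. The 1st percentile of the log2 fold change was at -4.67 and the 10th at -1.30, whereas the 90th was at 0.50 and the 99th at 0.94. The libraries of the groups did not overlap for 8418 genes (61.4%), and 10621 genes (77.4%) had the same sign of the paired ratio in all 4 pools. A further feature was transcript length, taken relative to the median gene from the ratio of counts to TPM in input. In 5 equal length classes, genes with the shortest transcripts had a median log2 fold change of 0.229, and the next classes had medians of 0.0816, 0.00237, -0.0685 and -0.215. The order was the same in each of the 4 pools, with medians of 0.163 to 0.263 for the shortest class and -0.233 to -0.166 for the longest. Short transcripts include those of peptide precursors, ribosomal proteins and respiratory chain subunits, so for these lists the median against genes of the same length class is given as well. The part of length in the fold changes of these genes was not tested further.

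**Figure D2:**
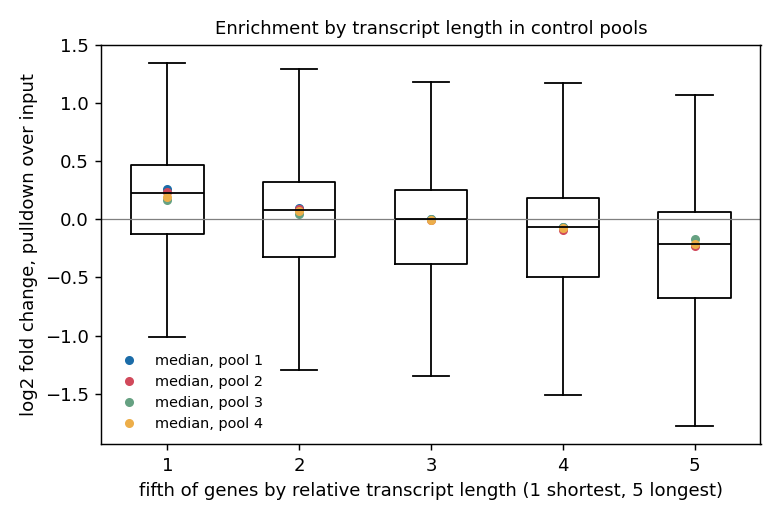
Log2 fold change of pulldown over input (vertical axis) for the tested genes in 5 classes of relative transcript length (horizontal axis, 1 shortest), with boxes from the 25th to the 75th percentile, a line at the median and coloured points for the median of each pool. The median falls from 0.229 in class 1 to -0.215 in class 5.

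Neuropeptide precursors lay at both ends of the distribution. Of 44 listed, 26 passed the expression filter. Of these, 16 were higher in pulldown (61.5%), 7 lower (26.9%) and 3 not past the test, against 32.3% and 35.3% of all genes. The median log2 fold change of the 26 was 0.638, and 0.435 against genes of the same length class. Of the 16, 2 passed the filter only through the pulldown, namely Gnrh1 and Calca, so the 26 do not stand for all peptide genes. Besides Ghrh, Sst and Pnoc, the most enriched were Gnrh1 (gonadotropin-releasing hormone) at 2.24, Trh (thyrotropin-releasing hormone) at 1.57, Calca (calcitonin gene-related peptide) at 1.55, Gal (galanin) at 1.37 and Nts (neurotensin) at 1.37. Penk (proenkephalin) followed at 1.08 and Cartpt (the CART peptide precursor) at 1.02. Smaller rises were those of Cck at 0.73, Pmch (melanin-concentrating hormone) at 0.69, Tac2 at 0.64, Tac1 at 0.64, Adcyap1 at 0.55 and Npy at 0.55.

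The hormones of the magnocellular neurons of the paraventricular and supraoptic nuclei were the most depleted peptide transcripts. Avp, vasopressin, had 9.96, 27.4, 21.2 and 38.8 CPM in input and 0.509, 0.744, 1.05 and 0.978 CPM in pulldown, a log2 fold change of -4.89 (SE 0.408). Oxt, oxytocin, had 9.43, 29.2, 20.4 and 27.3 CPM in input and 1.03, 1.67, 1.14 and 1.89 CPM in pulldown, at -3.91 (SE 0.345). Their depletion was of the size seen for glial genes. Npvf, the precursor of RFamide-related peptides of the dorsomedial region, was at -2.58, Vip, a peptide of the suprachiasmatic nucleus, at -2.15 and Hcrt, the orexin precursor of the lateral hypothalamus, at -1.74. Pomc, the precursor of melanocortins made in arcuate neurons, fell as well. It had 18.6, 25.0, 22.2 and 29.5 CPM in input and 10.1, 8.75, 11.7 and 10.99 CPM in pulldown, a log2 fold change of -1.20 (SE 0.136). Pdyn, prodynorphin, was at -0.70 (SE 0.0841).

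Npy and Agrp, which are made together by the AgRP neurons of the arcuate nucleus, differed. Npy, a peptide that stimulates feeding, had 14.9, 11.2, 12.9 and 16.3 CPM in input and 24.0, 18.5, 17.4 and 21.4 CPM in pulldown. Its groups did not overlap and its log2 fold change was 0.55 (SE 0.127, adjusted p = 0.00263). Agrp, the agouti-related peptide, had 2.90, 3.37, 3.48 and 5.24 CPM in input and 3.13, 2.59, 3.00 and 4.07 CPM in pulldown. The groups overlapped and it did not pass, at -0.23 (SE 0.198, adjusted p = 0.328). The difference between these 2 genes was not tested. Nucb2 at -0.04 and Pthlh at -0.15 did not pass either.

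On the per-length scale of TPM, which allows levels of different genes to be compared, Sst was the highest of the 26 peptide transcripts in pulldown at 1516 ± 53.0 TPM (SD, n = 4) and Pmch the next at 1469 ± 291. These levels differed by less than the spread of Pmch. Ghrh was the third at 416 ± 31.3 TPM, Cartpt the fourth at 255 ± 17.9 and Tac1 the fifth at 242 ± 33.6, the last 2 within their spread of each other. Pnoc stood 21st of 26 in pulldown, at 10.7 ± 1.72 TPM, next to Calca at 10.7 ± 1.23, and it was the last of the 26 in input at 1.69 ± 0.117 TPM. Avp moved from the third place in input (75.2 ± 37.5 TPM) to the 23rd in pulldown (5.38 ± 1.67 TPM). TPM values of the 2 kinds of library are not on a common scale, since mitochondrial RNA takes a large share of input.

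**Figure D3:**
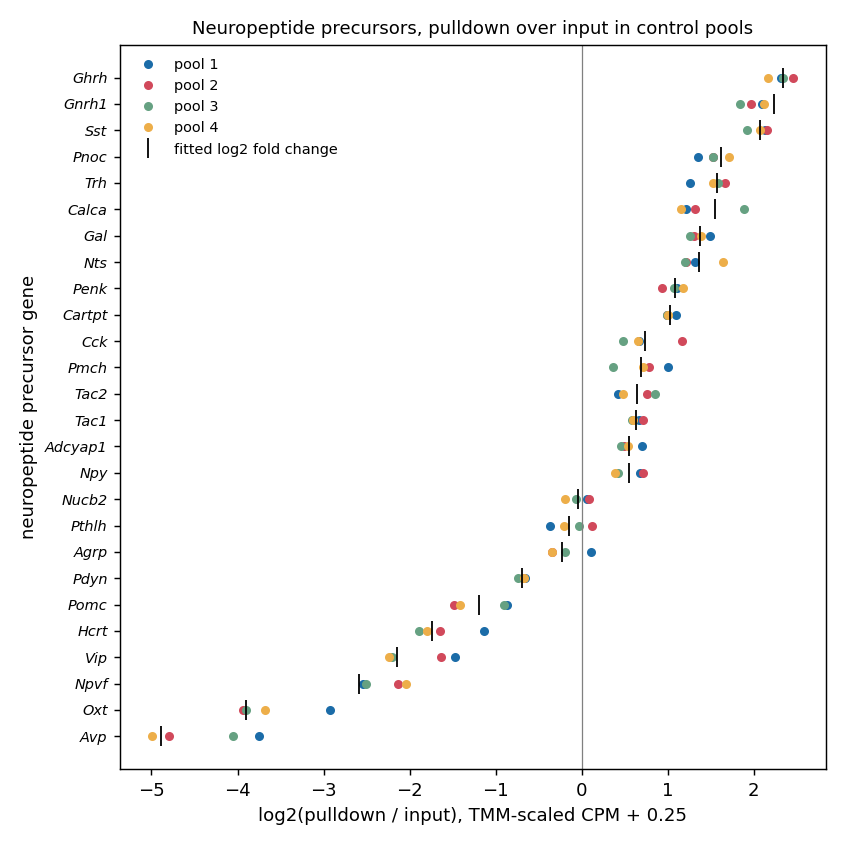
Log2 ratio of pulldown to input (horizontal axis, TMM-scaled CPM with 0.25 added) for the 26 peptide precursors that passed the filter, with a coloured point for each pool and a black mark for the fitted log2 fold change. Ghrh at 2.34 heads the order and Avp at -4.89 closes it, and the 4 pools of Agrp lie on both sides of 0.

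The 18 peptide genes under the filter had low levels in both kinds of library. Crh, corticotropin-releasing hormone, had 0.213 to 0.459 CPM in input and 0.245 to 0.499 CPM in pulldown, and Kiss1, kisspeptin, had 0.115 to 0.245 and 0.131 to 0.191 CPM. Qrfp, a lateral hypothalamic peptide, had 1.21 to 2.52 CPM in input and 0.0956 to 0.279 CPM in pulldown. Ucn was at 0 in all 8 libraries, which allows a level up to the floor of 3 counts.

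Genes of GABAergic neurons were mostly higher in pulldown, whereas Abat and Slc6a11 were lower. Slc32a1, the vesicular GABA transporter, had 12.8, 20.9, 23.8 and 23.6 CPM in input and 26.5, 43.2, 44.3 and 48.0 CPM in pulldown, a log2 fold change of 1.00 (SE 0.210). Pool 1 was the lowest in both kinds of library and the groups did not overlap. Gad2, the second GABA-synthesising enzyme, was at 0.76 (SE 0.0754). Abat, which breaks GABA down, was at -0.51 (SE 0.0328), and Slc6a11, an astrocytic GABA transporter, at -3.59 (SE 0.116).

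Of 13 tested transcription factors of the GABAergic lineage 11 were higher and 1 lower, with a median of 0.872, and 3 of the 11, Gsx1 among them, passed the filter only through the pulldown. Dlx6 was at 1.31 (SE 0.176) and Gsx1 at 1.29 (SE 0.174), with Dlx2 at 1.18, Lhx6 at 1.07 and Dlx1 at 1.04, all factors that specify forebrain GABAergic neurons. Dlx6 overlaps the antisense gene Dlx6os1, itself at 0.56, and since no source used here states the strand setting of the counting, reads of this pair cannot be told apart. Meis2 did not pass, at 0.06 (SE 0.268).

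Glutamatergic genes did not move uniformly. Of 6 tested genes of glutamate synthesis and transport 4 were higher (66.7%) and 1 lower (16.7%), against 32.3% and 35.3% of all genes. Slc17a6, the vesicular glutamate transporter of most hypothalamic glutamatergic cells, had 194, 214, 197 and 216 CPM in input and 301, 255, 250 and 264 CPM in pulldown, a log2 fold change of 0.38 (SE 0.0622). Gls2, a glutaminase, was at 0.92 (SE 0.0980), and Slc17a8 was lower at -1.08 (SE 0.164). Of 9 tested genes of monoamine and acetylcholine synthesis and transport 4 were higher (44.4%) and 2 lower (22.2%), against 32.3% and 35.3% of all genes. Th, the rate-limiting enzyme of dopamine synthesis, was at 0.91 (SE 0.0596) and Slc18a2, the vesicular monoamine transporter, at 0.71 (SE 0.124). Slc6a3, the dopamine transporter, did not pass, at -0.35 (SE 0.187). The monoamine-degrading enzymes Maoa at -0.15 and Maob at -0.29 passed as lower with overlapping groups.

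Among transcription factors of hypothalamic regions, those of the arcuate nucleus were mostly higher and those of the ventromedial nucleus mostly lower. Of 10 tested arcuate factors 7 were higher and 0 lower, with a median of 0.605. Onecut3 had 8.04, 12.8, 14.4 and 14.5 CPM in input and 21.4, 33.0, 32.6 and 33.6 CPM in pulldown, a log2 fold change of 1.28 (SE 0.189). Hmx2 was at 1.00 (SE 0.144), Otp at 0.73 (SE 0.0777), Nkx2-1 at 0.67 (SE 0.138), Isl1 at 0.54 (SE 0.0499) and Tbx3 at 0.29 (SE 0.0814). Onecut2 at 0.02, the lowest, did not pass. Several of these factors are also expressed outside the arcuate nucleus.

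Of 8 ventromedial factors 0 were higher and 5 lower, with a median of -0.350. Nr5a1 (SF-1), which defines the ventromedial nucleus, had 7.03, 6.10, 5.79 and 6.22 CPM in input and 1.98, 1.70, 1.28 and 1.65 CPM in pulldown, a log2 fold change of -1.92 (SE 0.141). Nkx2-2, which is also expressed in cells of the oligodendrocyte lineage, was at -2.72 (SE 0.200), Tcf7l2 at -0.62 (SE 0.0829) and Fezf1 at -0.34 (SE 0.0682).

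The other regional lists held members on both sides, and over all genes 32.3% were higher and 35.3% lower. Of 6 paraventricular and supraoptic factors 2 were higher (33.3%), Sim2 at 1.28 (SE 0.167) and Sim1 at 0.62 (SE 0.0815). Sim2 passed the filter only through the pulldown. The other 4 were lower (66.7%), among them Pou3f2 at -1.72 (SE 0.0804) and Nr3c1, the glucocorticoid receptor, at -0.67 (SE 0.0451). Of 6 tested mammillary factors 2 were higher (33.3%) and 4 lower (66.7%), and 3 of these 4 passed the filter only through the input. Foxb1, a factor of mammillary neurons, had 27.9, 24.4, 20.7 and 18.7 CPM in input and 106, 62.9, 54.9 and 52.7 CPM in pulldown, a log2 fold change of 1.59 (SE 0.217), and pool 1 was the highest in both. Lmx1a, at -2.70 (SE 0.210), and Lmx1b, at -2.07 (SE 0.176), were lower. Of 10 suprachiasmatic and preoptic factors 4 were higher and 4 lower (40% each), against 32.3% and 35.3% of all genes. Lhx1 was at 1.01 (SE 0.122), Satb1 at -0.96 (SE 0.0585) and Lhx2 at -0.95 (SE 0.107). Among genes of neurons of neighbouring regions, 4 of 14 were higher (28.6%) and 7 lower (50%). Ppp1r1b (DARPP-32) of striatal projection neurons had 8.20 to 9.74 CPM in input and 0.940 to 1.21 CPM in pulldown, at -3.06 (SE 0.120), while Drd2, the dopamine D2 receptor, was at 0.78 (SE 0.109).

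Markers of AgRP neurons were mostly higher, whereas those of POMC neurons were divided much like all genes. Of 11 tested AgRP neuron markers, a list that shares Sst with the label, 7 were higher (63.6%) and 2 lower (18.2%). The shares over all genes were 32.3% and 35.3%, and the median of the list was 0.553. Asb4 was at 0.56 (SE 0.0378) and Ghsr, the ghrelin receptor, at 0.50 (SE 0.160). Acvr1c was lower at -0.81 (SE 0.128) and Npr3 at -0.48 (SE 0.117). Agrp itself did not pass, at -0.23 (SE 0.198). Asic4, at 1.03 (SE 0.343), had overlapping groups and was at -0.0515 relative to the median gene by limma on log2(TPM + 1). It also passed the filter only through the pulldown. Of 13 POMC neuron markers 5 were higher (38.5%) and 4 lower (30.8%), against 32.3% and 35.3% of all genes, with Cartpt at 1.02 and Glp1r at 0.98 (SE 0.160) above and Ttr at -2.77 (SE 0.316) and Anxa2 at -2.33 (SE 0.153) below. Ttr passed the filter only through the input and is also the main transcript of the choroid plexus.

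Receptors and ion channels gave mixed counts. Of 40 neuropeptide and hormone receptors 14 were higher (35%) and 10 lower (25%), with a median of 0.124. The shares over all genes were 32.3% and 35.3%. Glp1r, the receptor of glucagon-like peptide 1, had 4.79, 7.44, 6.65 and 7.73 CPM in input and 10.4, 12.2, 14.0 and 15.9 CPM in pulldown. Tacr3, the neurokinin B receptor, was at 0.79 (SE 0.167) and Sstr2, a somatostatin receptor, at 0.70 (SE 0.173). Ntsr2, a neurotensin receptor of astrocytes, fell to -4.33 (SE 0.0885), from 52.6 to 63.2 CPM in input to 2.60 to 3.28 CPM in pulldown, and Lepr was the next lowest. Mc4r, a melanocortin receptor, was near the filter at 1.34 CPM in pulldown and did not pass, at 0.12 (SE 0.241). Of 25 potassium channel genes 10 were higher (40%) and 6 lower (24%). Kcnj9 at 0.72 (SE 0.0470) and Kcnj3 at 0.66 (SE 0.0444) encode subunits of the GIRK channels through which inhibitory G protein-coupled receptors silence neurons. Kcnj10, the inward rectifier of astrocytes, was at -4.88 (SE 0.0826).

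General neuronal genes were higher. Among the 20 pan-neuronal genes, with a median of 0.511, 17 passed as higher and 2 as lower. Syp, synaptophysin, was at 0.87 (SE 0.129), Snap25, a component of the release machinery, at 0.86 (SE 0.0612), Ndrg4 at 0.85 (SE 0.0352) and Rbfox3, the nuclear antigen NeuN, at 0.61 (SE 0.0366). Map2, a dendritic microtubule protein, was lower at -0.75 (SE 0.0428), from 2206 to 2490 CPM in input to 1351 to 1430 CPM in pulldown. Celf4 was at -0.10 (SE 0.0376, adjusted p = 0.0422), with overlapping groups. Of 22 genes of synaptic vesicles 17 were higher and 0 lower, with a median of 0.376, led by Vamp1 at 1.08 (SE 0.0451) and Cplx1 at 1.05 (SE 0.0857). Of 18 genes of peptide processing and dense-core vesicles 11 were higher and 4 lower. Resp18 at 0.77 (SE 0.119) and Pcsk1n, an inhibitor of the prohormone convertase PC1/3, at 0.60 (SE 0.0886) were the highest. Sytl4 at -1.27 (SE 0.0544) and Cpe, carboxypeptidase E, at -0.93 (SE 0.0618) were the lowest.

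Genes of other cell types were almost uniformly depleted. All 16 tested astrocyte markers were lower, with a median of -4.28. Gja1, connexin 43, had 99.1, 99.7, 107 and 109 CPM in input and 3.86, 3.65, 3.22 and 3.76 CPM in pulldown, a log2 fold change of -4.84 (SE 0.0668). Agt was at -5.11 (SE 0.0979), and the least depleted was Aldoc at -1.60 (SE 0.0437), which stayed at 225 to 252 CPM in pulldown. All 14 tested oligodendrocyte genes were lower, with a median of -4.11. Ermn, a cytoskeletal protein of myelinating oligodendrocytes, had 108, 106, 116 and 117 CPM in input and 4.03, 3.36, 3.51 and 4.43 CPM in pulldown. Tspan2 at -1.30 (SE 0.109) and Mbp at -2.21 (SE 0.0800), the myelin basic protein, were the least depleted.

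All 12 tested microglial genes were lower, with a median of -4.44, and 9 of them passed the filter only through the input. The same held for 5 of the 8 precursor genes and 5 of the 12 tanycyte genes called lower. It also held for 3 of the 5 vascular genes and 4 of the 5 genes of choroid plexus, blood and pituitary called lower. Among the lower genes above, it held for 3 of 14 oligodendrocyte genes and 1 of 16 astrocyte markers. P2ry12 had 7.56 to 10.2 CPM in input and 0.191 to 0.323 CPM in pulldown. Of 9 genes of oligodendrocyte precursors 8 were lower. Gpr17 was at -5.04 (SE 0.139) and Pdgfra at -4.95 (SE 0.172), but Cacng4 only at -0.39 (SE 0.0535), and Lhfpl3 did not pass, at 0.00 (SE 0.109). All 12 tested genes of tanycytes and ependyma were lower, with Ccdc153 at -4.70 (SE 0.252) and Gpr50 at -1.24 (SE 0.0866). Of 6 vascular genes 5 were lower, with Rgs5 at -3.91 (SE 0.197), and Bsg did not pass, at 0.23 (SE 0.101). Of 6 genes of choroid plexus, blood and pituitary 5 were lower, with the haemoglobin gene Hba-a1 at -4.97 (SE 0.268), and Kl did not pass, at 0.06 (SE 0.0809). The non-passing members Lhfpl3, Bsg and Kl were chosen after their values were seen. Of the defining endothelial markers Cldn5 was at 0 in all 4 pulldown libraries and at 0.140 to 0.231 CPM in input, below the filter.

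**Figure D4:**
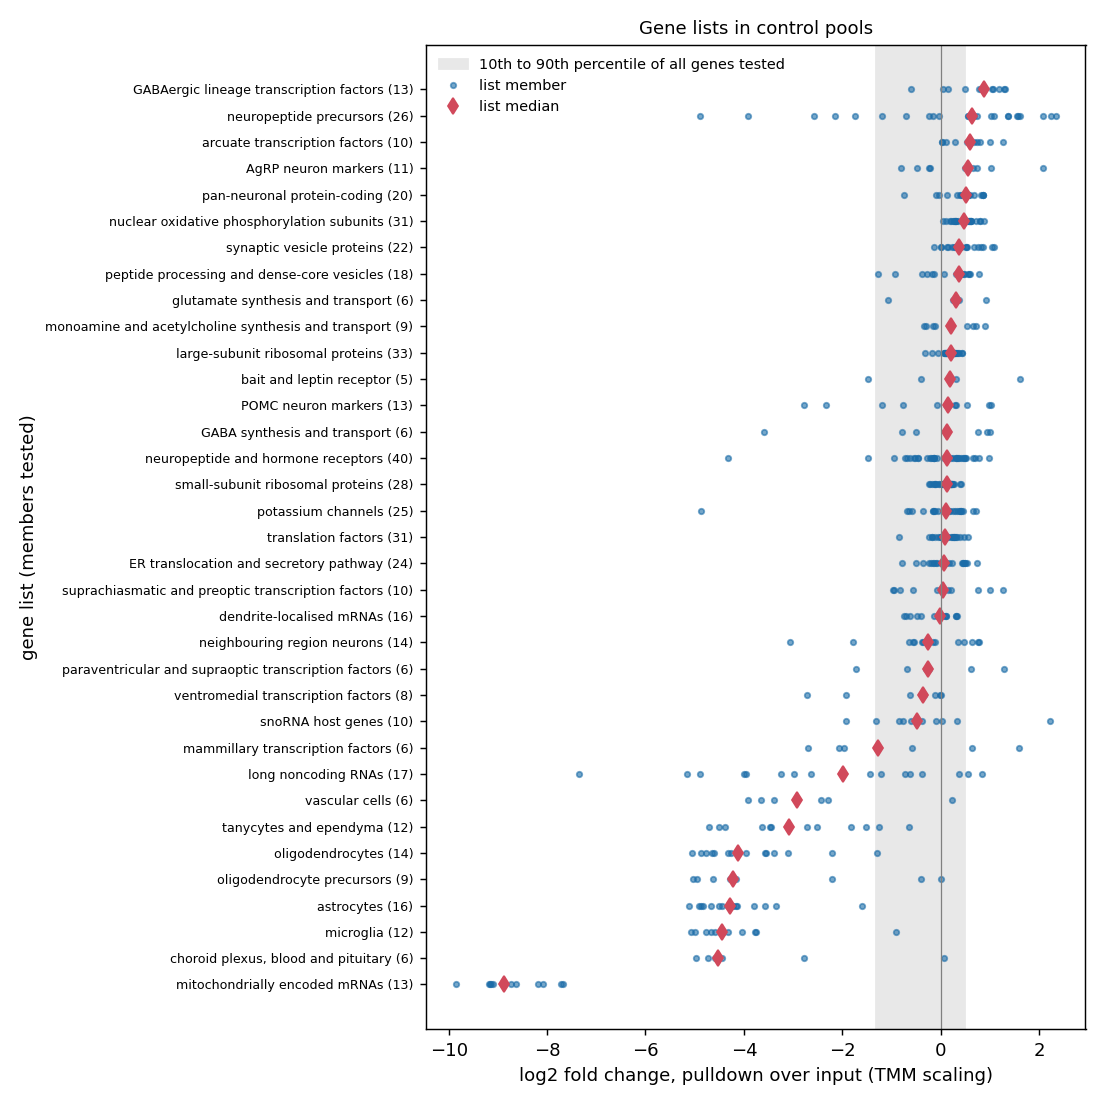
Log2 fold change of pulldown over input (horizontal axis) for the tested members of 35 gene lists (points) with the list median (diamond), ordered by median, over a grey band from the 10th to the 90th percentile of all genes. The medians run from -8.88 for mitochondrially encoded mRNAs to 0.872 for GABAergic lineage transcription factors, and the glial lists lie left of the band.

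Mitochondrially encoded mRNAs and the nuclear RNA Malat1 were far below the glial genes. All 13 mitochondrially encoded mRNAs were lower, with a median of -8.88, and 3 of them passed the filter only through the input. mt-Co1, a subunit of cytochrome c oxidase translated inside mitochondria, had 19620, 21270, 20870 and 21830 CPM in input and 117, 83.1, 100 and 99.2 CPM in pulldown, a log2 fold change of -7.71 (SE 0.113). mt-Nd3 had 40 counts in the pulldown of pool 1 and 0 in the pulldown of pools 2 to 4, so its fitted value is not given as a fold. The nuclear genes of the same respiratory chain went the other way. Of 31 nuclear subunits of oxidative phosphorylation, translated on cytosolic ribosomes, 29 were higher and 0 lower, with a median of 0.480, and 0.253 against genes of the same length class. Uqcrb was at 0.88 (SE 0.106), Cox5a at 0.81 (SE 0.0488), Uqcrc1 at 0.22 (SE 0.0540) and Sdha at 0.19 (SE 0.0323).

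Long noncoding RNAs on the list were mostly depleted. Malat1, a nuclear RNA, had 9871, 10380, 8586 and 9319 CPM in input and 67.1, 55.2, 59.5 and 51.9 CPM in pulldown, a log2 fold change of -7.35 (SE 0.106) or 163-fold less. Of 17 tested members 14 were lower and 3 higher, with a median of -1.98, and 2 of the 14 passed the filter only through the input. Neat1, the scaffold of nuclear paraspeckles, was at -5.15 (SE 0.110) and Meg3 at -4.88 (SE 0.153). Peg13 was higher, at 0.85 (SE 0.0374), but lies inside Trappc9, so its reads may be shared with that gene. These are well-known and abundant RNAs. The 412 tested genes that RefSeq classes as lncRNA had a median of -0.0942, with 20.1% higher and 37.6% lower, against 0.00385, 33.3% and 35.2% for 12065 protein-coding genes. Of 10 tested snoRNA host genes 2 were higher and 6 lower. Snhg3 had 4.70, 6.25, 5.51 and 4.20 CPM in input and 27.1, 24.6, 22.7 and 21.8 CPM in pulldown, a log2 fold change of 2.22 (SE 0.119), and Snhg12 was at 0.33 (SE 0.0919). Snhg18 at -1.93 (SE 0.141) and Snhg20 at -1.31 (SE 0.134) were the lowest.

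The translation machinery itself shifted little. Of 33 large-subunit ribosomal protein genes 21 were higher and 2 lower, with a median of 0.201, which was -0.00679 against genes of the same length class. Rpl15 was at 0.44 (SE 0.0357) and Rplp1 at -0.32 (SE 0.0787). Rpl22, at -0.17 (SE 0.0620), turned to 0.0398 with counts rescaled from TPM. Of 28 small-subunit genes 13 were higher and 4 lower, with a median of 0.122, which turned to -0.100 against the same length class. Ribosomal protein genes have many near-identical pseudogenes, so reads may have been split among copies. Of 31 translation factors 13 were higher (41.9%) and 4 lower (12.9%), against 32.3% and 35.3% of all genes. Eif1, a factor of start codon selection, was at 0.56 (SE 0.0497), and Pabpc1, the poly(A)-binding protein, was the lowest at -0.85 (SE 0.0487). Of 24 genes of ER translocation and secretion 8 were higher (33.3%) and 3 lower (12.5%). Among them Srp14 of the signal recognition particle was at 0.74 (SE 0.0697) and the translocon component Sec63 at -0.79 (SE 0.0410). Of 16 mRNAs known to localise to dendrites 4 were higher (25%) and 5 lower (31.2%), against 32.3% and 35.3% of all genes. Their median was -0.0220. Psd at 0.32 (SE 0.0445) was the highest, and Map2 and Shisa7, at -0.69 (SE 0.141), the lowest.

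Among abundant genes (mean log2 CPM from 5 upwards) whose groups did not overlap, leaving out mitochondrially encoded genes and gene models without an ordinary symbol, Sst had the largest rise, and Crabp1, a retinoic acid-binding protein of the cytosol, was the next at 1.95 (SE 0.0877). Crabp1 had 15.3, 12.4, 14.9 and 13.1 CPM in input and 61.4, 49.7, 54.9 and 50.4 CPM in pulldown. The others of the 10 highest were Ctxn3 at 1.79, Rprm at 1.68, Foxb1 at 1.59, Cpne9 at 1.30, Pcp4 at 1.21, Tm2d3 at 1.16, Ube2e1 at 1.11 and Evl at 1.1. Pcp4, a calmodulin-binding protein, was the most abundant of them, with 319 to 390 CPM in input and 705 to 1002 CPM in pulldown. Ctxn3, Rprm, Foxb1, Cpne9 and Pcp4 were each highest in pool 1 in both kinds of library. Among the 10 lowest of these genes were the noncoding RNAs Malat1 and Meg3 and genes known from glia or vascular cells. Of the latter, Sdc4 was at -5.08, the lipid carrier Apoe at -5.07, the water channel Aqp4 at -4.91, Kcnj10 at -4.88, Ermn at -4.87, Sparc at -4.86 and Gja1 at -4.84.

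Pool 1 stood apart from the other 3 pools in its peptide transcripts. It had the lowest level of the 4 pools for 18 of the 26 peptides in input, for 19 in pulldown and for 14 in both, whereas pool 4 was the highest for 16 in input and 16 in pulldown. Trh had 5.41 CPM in the input of pool 1 and 9.56 to 13.7 CPM in the others, and 13.3 CPM in its pulldown against 31.0 to 40.2 CPM. For Trh the level moved together in both libraries of a pool, and its paired log2 ratio was 1.26 to 1.67 over the 4 pools. The summed level of 4 Y-linked genes (Ddx3y, Uty, Kdm5d and Eif2s3y) also set pool 1 apart, at 47.5 CPM against 85.9 to 101 CPM in input and 38.6 against 70.0 to 80.8 CPM in pulldown. The labels give no sex for the animals, and the part of the makeup of pool 1 in these levels was not tested. Without both libraries of pool 1, 9480 of 13682 genes passed, 4645 higher and 4835 lower. Of the peptides again 16 were higher and 7 lower, of the arcuate factors 7 and 0, of the ventromedial factors 0 and 5 and of the GABAergic lineage factors 11 and 1. Of the 35 lists 22 had the same counts without pool 1 and 13 had others. The potassium channels went from 10 higher and 6 lower to 13 and 7, the secretory pathway genes from 8 and 3 to 9 and 6, the small-subunit ribosomal genes from 13 and 4 to 12 and 6, and the monoamine and acetylcholine genes from 4 and 2 to 4 and 3. Pan-neuronal genes called lower went from 2 to 1, and 1 vascular gene instead of 0 was called higher. The mammillary median moved from -1.28 to -0.624, with 5 members tested.

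**Figure D5:**
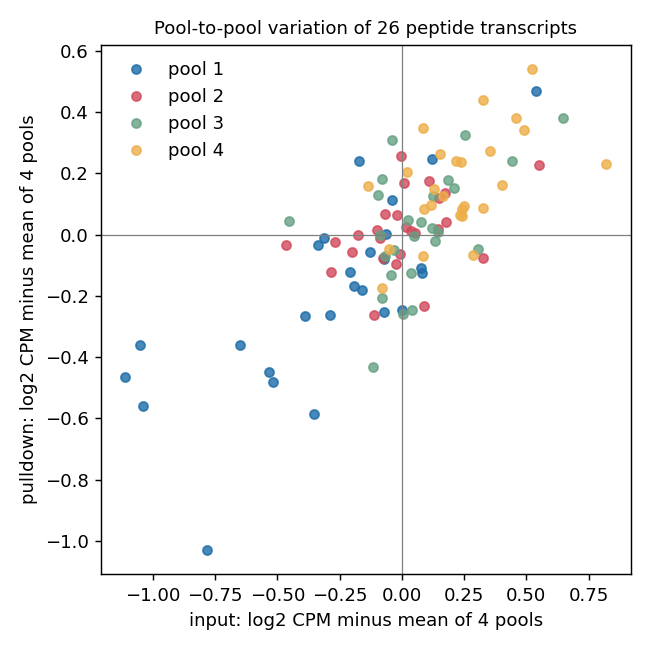
Deviation of log2 CPM from the mean of the 4 control pools in input (horizontal axis) and pulldown (vertical axis) for the 26 peptide transcripts, 1 point for each gene and pool. Most points of pool 1 lie at the lower left, including the lowest, and many of pool 4 at the upper right.

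Enrichment in the 4 control pools was compared with that in the 4 Lepr-deletion pools by the interaction of fraction and genotype over the 16 libraries. Of 13714 genes tested in that fit 3 passed (0.0219%), and 1396 did so at an unadjusted p of 0.05, while 26 were called by DESeq2. Aim2, a sensor of cytosolic DNA, was less depleted after deletion. It had 2.50, 1.88, 2.40 and 2.07 CPM in control input and 0.349, 0.325, 0.271 and 0.355 CPM in control pulldown, against 3.30, 3.39, 2.91 and 3.05 CPM and 1.30, 1.61, 1.51 and 1.51 CPM in pools 5 to 8. Its log2 fold change was -2.77 in control and -1.09 after deletion, a difference of 1.67 (SE 0.201, edgeR adjusted p = 0.00229).

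Serpina3n, a protease inhibitor and a marker on the AgRP list, had 12.1, 15.7, 16.3 and 18.9 CPM in control pulldown and 9.20, 8.75, 8.46 and 8.67 CPM in deletion pulldown, and it did not pass within control. The difference of its log2 fold changes was -0.98 (SE 0.153, adjusted p = 0.0372). Cartpt was enriched less after deletion, at 0.47 (SE 0.0689) against 1.02 (SE 0.0592) in control, a difference of -0.56 (SE 0.0930, adjusted p = 0.0488). It had 66.8, 69.9, 66.8 and 73.9 CPM in control pulldown and 49.5, 49.4, 44.4 and 39.8 CPM in deletion pulldown, with 31.1 to 36.6 and 31.9 to 33.7 CPM in the inputs. Leaving out single libraries left 1 to 6 genes. Aim2 passed in each of those 16 fits (adjusted p = 0.00244 to 0.0112). Cartpt kept the call without the pulldown of pool 1, 5 or 6 or the input of pool 4 and lost it without any other library, with adjusted p up to 0.119. Serpina3n kept it without the pulldown of pool 1 or 5 or the input of pool 4 or 7 and lost it without any other, with adjusted p up to 0.117.

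The marker genes themselves showed differences whose 95% intervals included 0. For Pnoc the difference was -0.01 (interval -0.366 to 0.353), for Ghrh -0.05 (-0.342 to 0.234), for Sst -0.02 (-0.211 to 0.162) and for Gad1 0.08 (-0.0430 to 0.202). Npy was at 0.94 after deletion and 0.55 in control, a difference of 0.37 (SE 0.179, adjusted p = 0.499) that did not pass.

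In the authors' deposited table, 12435 of 23495 genes with a value for the control comparison had an adjusted p under 0.05, 5413 higher and 7022 lower. Of the 13548 of these genes also tested here, 8557 passed in both, where 9275 passed here. All 8557 had the same sign. Both fits rest on the same control libraries, so the shared signs are not independent support. In the authors' deposited table the log2 fold change was 1.69 for Pnoc, 2.41 for Ghrh, 2.15 for Sst and 1.01 for Gad1. In the authors' deposited table Celf4, at -0.02 with an adjusted p of 0.681, and Rpl22, at -0.10 with 0.272, did not pass.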

How the data were processed

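RNA sequencing covered input and pulldown libraries of control pools 1 to 4, with pools 5 to 8 used for the difference between genotypes. The authors deposited 3 tables by gene, holding estimated counts, TPM, and estimated counts that they rescaled from the TPM values. The submitters' processing notes name Salmon 1.10.1, DESeq2 1.38.3 and build GRCm38. No source used here states the annotation release or strand setting. A table deposited by the authors holds their log2 fold changes and adjusted p-values.

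Here estimated counts, as deposited, were rounded and tested with edgeR 4.0.16 (R 4.3.3), quasi-likelihood test, TMM scaling, 2-sided, Benjamini-Hochberg adjustment at 0.05, on genes with mean CPM of at least 1. Of 45706 gene rows 32383 matched a RefSeq symbol, from which positions were taken. Equal input and pulldown numbers are 1 lysate per the labels' extraction protocol, and deviations from group means correlated between them at 0.432, 0.0721, 0.157 and 0.273. The pool entered the fit as a block only as an alternative. The members and the 35 gene lists were chosen with earlier results of these data known, and lists are described without set tests.

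Named genes are Pnoc, Gad1, Sst, Ghrh, Lepr, Rpl10a, all peptide precursors, the 2 highest and 2 lowest passing members of each list, the 10 genes of largest rise and of largest fall with mean log2 CPM from 5 upwards, groups apart and ordinary symbols (mitochondrially encoded genes and unnamed gene models left out), and the genes that differed between genotypes. Further list members are named to show the range of a list and were chosen after their values were seen. Some list members are not reported here. Of 169 genes named by this rule 61 overlap another annotated gene. Paired ratios used log2(CPM + 0.25). Alternatives were other scalings, filters, DESeq2 1.42.0, limma 3.58.1 on log2(TPM + 1) and log2(TPM + 0.1), all 16 libraries, and each library left out. Leaving out both libraries of pool 1 and comparing within length classes were chosen after seeing the data. The scripts were tested on simulated data.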

Additional observations from a re-analysis of the deposited data

Results flagged for a closer look

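In 17 of 322 groups of 4 libraries examined (161 of the named genes, in input and in pulldown), the highest or lowest library lay far from the other 3 by Dixon's criterion. This is 5.28%, and chance flags about 1 in 20 groups. Pool 1 was the odd library in 14 of the 17. In pulldown, pool 1 was low for Cplx1 (232 CPM), Cyfip2 (829 CPM), Gpr50 (10.9 CPM), Lmx1b (0.354 CPM), Onecut3 (21.4 CPM), Pcsk1n (93.1 CPM), Tm2d3 (42.5 CPM) and Tspan2 (43.0 CPM). It was high there for mt-Nd3 (0.443 CPM), Pabpc1 (108 CPM) and Rprm (109.9 CPM). In input, pool 1 was low for Penk (16.4 CPM), Rab3c (1276 CPM) and Spcs1 (35.0 CPM). Pool 4 was high in input for Kcnj10 (309.9 CPM) and Leprot (11.7 CPM) and low in pulldown for Rpl10a (141 CPM).

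The log2 enrichment differed between Lepr-deletion and control pools, by the interaction test over 16 libraries, for Serpina3n (-0.98), Cartpt (-0.56) and Aim2 (1.67).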

How the results depend on the processing

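Against 4430 higher and 4845 lower genes under TMM, scaling by library totals gave 10032 and 2021 (83.2% of calls higher, against 47.8%), limma on log2(TPM + 1) gave 11428 and 1329 (89.6%), and limma on log2(TPM + 0.1) gave 11421 and 1327. The other scalings, filters and tools, and leaving out libraries, kept these counts within 1.5 times, with 4135 to 4864 higher and 4272 to 4900 lower when single libraries were left out. With no filter 13035 of 28646 genes passed and with filterByExpr 11381 of 17570. With the pool as a replicate block 10122 genes passed, 4911 higher and 5211 lower, and 9248 of the 9275 calls were shared with the same sign. The block ended no call of a named gene and raised the genotype difference from 3 genes to 4. That difference gave 2 genes with TMM without mitochondrially encoded genes and 2 with filterByExpr, where Cartpt missed at 0.0515 and 0.054. DESeq2 gave 26 and no adjusted p for Aim2, and leaving out single libraries gave 1 to 6.

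Of 169 named genes 154 kept direction and call in every alternative where they were tested, relative to the median gene for library totals and TPM. Celf4 turned to 0.0425 with no filter and 0.0126 with log2(TPM + 1). Rpl22 turned to 0.0398 with rescaled counts, 0.137 with log2(TPM + 1) and 0.0381 with log2(TPM + 0.1). Asic4 turned to -0.0515 with log2(TPM + 1). Of 35 list medians relative to all genes 32 did not turn by more than the SD between pools. The mammillary median turned to 0.596 at a mean CPM of at least 5, where fewer members were tested. The receptor median turned to -0.0896 with log2(TPM + 1), and the small-subunit median to -0.100 within length classes. Other causes were not tested.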
